A study of Mus musculus with 12 samples.

Results

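The mRNAs of 10 proteins that cut precursor mRNAs and start their poly(A) tails were followed in sorted mouse round spermatids with and without the RNA-binding protein IGF2BP3. The genes were chosen by name, as subunits of the cleavage and polyadenylation specificity factor CPSF (Cpsf1, Cpsf2, Cpsf3 and Cpsf4), of the cleavage stimulation factor CstF (Cstf1, Cstf2, Cstf3 and the testis paralog Cstf2t) and of cleavage factor I (Nudt21 and Cpsf6). All 10 were present among the 28643 genes of the deposited table and passed the filter on low values in each comparison.

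The control spermatids came from 8-week-old male mice that carried 1 intact copy of Igf2bp3 (Igf2bp3+/-), and not from wild-type animals. The knockout spermatids came from Igf2bp3-/- males of the same age, in which Cas9 injection into C57BL/6 zygotes had made a frameshift in the exon that encodes the KH1 RNA-binding domain. By the methods, knockout males with impaired fertility were picked for these experiments, so the group does not represent every Igf2bp3-/- male. All cells were held in cycloheximide, which freezes elongating ribosomes, while they were sorted. RNA-seq measured the poly(A) RNA of the whole extract, and RNC-seq (ribosome nascent-chain complex sequencing) measured mRNAs that sedimented with 4 or more ribosomes. Each combination of genotype and assay had 3 libraries, 12 in all, which the labels call biological replicates without tying a library to an animal. By the methods each mouse's extract was split between the assays, but nothing states that equal replicate numbers in RNA-seq and RNC-seq mark the same mouse, so the assays were compared without pairing, and the p-values measure the spread between these samples.

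At the 3′ end of a precursor mRNA, CPSF binds the hexamer AAUAAA and cuts downstream of it, CstF holds the U-rich or GU-rich element beyond the cut, and cleavage factor I binds UGUA elements upstream of it. The choice among several such sites sets the length of the 3′ untranslated region. Male germ cells are known for frequent use of proximal sites and for sites that lack the canonical hexamer. Cstf2 lies on the X chromosome, which is silenced during male meiosis, and Cstf2t is an autosomal retrogene copy of it that is highly expressed in male germ cells.

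The annotated 3′ ends of the factors' own transcripts included ends with and without the hexamer, at shares near those of all genes. The last 30 bases of the principal transcript of each gene were read from the GENCODE transcripts of GRCm38 and searched on the transcript strand for the hexamer AATAAA and, in ends without it, for its common variant ATTAAA. The first hexamer was present in 6 of the 10 factors (Cstf1, Cstf2, Cstf3, Cpsf2, Cpsf6 and Nudt21) and in 50.9% of the 21795 protein-coding genes with such an end. Neither hexamer was present in Cstf2t, Cpsf1, Cpsf3 and Cpsf4, as in 37.7% of all genes, and ATTAAA alone ended 0 of the 10 factors and 11.4% of all genes. The tetramer TGTA, the DNA form of the cleavage factor I element, lay in this window in 1 of the 10 factors, Cpsf6, and in 13.7% of all genes. Bases upstream of this window were not searched, so a missing TGTA does not show that an end lacks the element. The ends of the paralogs Cstf2 and Cstf2t are shown because they differ in this respect, with those of Cpsf1 as a second end without the hexamer and of Nudt21 and Cpsf6 as the members of cleavage factor I. They are written 5′ to 3′ in transcript sense, with AATAAA in capitals. They lie at chrX:134086790-134086819 (+ strand), chr19:31087040-31087069 (+), chr15:76595806-76595835 (-), chr8:94015496-94015525 (-) and chr10:117344673-117344702 (-), in the order printed, each in the last exon of its gene. The ends used in these spermatids were not measured by the deposited values, so an annotated end without a hexamer does not show that such a site was used.
Cstf2: ctgtcgtggattcAATAAAtattttaaaag
Cstf2t: acaaaatataacagttctttgcattaagac
Cpsf1: taaaacacaaagaaaacgatttctttcaga
Nudt21: gttatttcAATAAAaatatttaaaactgaa
Cpsf6: tcttgtattgaaAATAAAaacaaagttttg

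The libraries carried round spermatid markers together with markers of other testis cells. Between 23554 and 25633 genes were above 0 in the RNA-seq libraries and between 21490 and 22797 in the RNC-seq libraries. The table gives no read counts, so sequencing depth is unknown. The estimated worth of 1 read, taken from the most frequent low values of genes with a single transcript, put the depth of the Igf2bp3-/- RNA-seq replicate 1 library at 1 and the other libraries at 0.379 to 0.566 of it. On that estimate the 2 factors with a single annotated transcript, Cstf2t and Cpsf2, rested on 363 to 1833 and 401 to 1510 reads per library. Igf2bp3 itself stood at 38.2, 38.6 and 33.4 FPKM (fragments per kilobase of transcript, scaled to the fragments of the library) in Igf2bp3+/- RNA-seq and at 31.7, 32.5 and 31.4 FPKM in Igf2bp3-/- RNA-seq. A frameshift need not lower the mRNA, so this level does not check the genotype. All 7 round spermatid markers were detected, with summed levels of 797 to 919 FPKM in Igf2bp3+/- RNA-seq and 986 to 1160 in Igf2bp3-/- RNA-seq, which did not overlap, and of 988 to 1294.5 and 1261 to 1401 in RNC-seq, which did. The summed level of 7 Leydig cell markers was 14.6 to 21.5 FPKM in Igf2bp3+/- RNA-seq, 46.4 to 52.9 in Igf2bp3-/- RNA-seq, 6.23 to 13.9 in Igf2bp3+/- RNC-seq and 50.4 to 100 in Igf2bp3-/- RNC-seq. That of 6 spermatocyte markers was higher, at 72.2 to 92.4 FPKM in Igf2bp3+/- and 84.8 to 109 in Igf2bp3-/- RNA-seq. In RNC-seq it was 103 to 199 FPKM in Igf2bp3+/- and 83.8 to 149 in Igf2bp3-/-, and the genotypes overlapped in both assays. The largest sum was that of 5 elongating spermatid markers, at 9004 to 11605 FPKM in Igf2bp3+/- and 10091 to 10231 in Igf2bp3-/- RNA-seq. In RNC-seq it was 12282 to 14690 and 11136 to 21892 FPKM. Prm1, Prm2, Tnp1 and Tnp2 are among them, and the paper measured these mRNAs in sorted round spermatids too. The sum therefore need not come from later cells.

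The factors differed widely in mRNA level, from abundant Cstf1 to scarce Cpsf6. In Igf2bp3+/- RNA-seq the mean levels ran from 59.7 FPKM for Cstf1 through 37.3 for Cpsf1, 19.8 for Nudt21, 17.8 for Cpsf3, 10.4 for Cstf2t, 8.22 for Cstf3, 7.37 for Cstf2, 5.95 for Cpsf2 and 5.66 for Cpsf4 to 1.81 for Cpsf6. FPKM is a level per annotated length. The order of these genes holds only as far as those lengths match the transcripts present, which were not measured. Neighbours in this order did not overlap over their 3 libraries, apart from Nudt21 with Cpsf3, Cstf3 with Cstf2 and Cpsf2 with Cpsf4. Cstf1 was above 94.0% and Cpsf6 above 61.0% of all genes with a mean level above 0. In Igf2bp3-/- RNA-seq the order of the 10 means was the same, with overlap between Cstf3 and Cstf2 and between Cstf2 and Cpsf2.

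In the polysomal libraries the order of the more abundant factors changed. Nudt21 ranked below Cpsf1 in RNA-seq and above it in RNC-seq of both genotypes, where Nudt21 averaged 40.2 FPKM in Igf2bp3+/- and 38.2 in Igf2bp3-/- and Cpsf1 averaged 13.4 and 22.0 FPKM, with overlap between them in Igf2bp3-/-. Below Cstf1, Nudt21, Cpsf1 and Cpsf3, the levels of the others drew together. Cstf3, Cstf2t, Cstf2, Cpsf2 and Cpsf4 had means of 3.36 to 5.21 FPKM in Igf2bp3+/- RNC-seq and of 3.89 to 4.82 in Igf2bp3-/- RNC-seq, and in the latter each of these overlapped with its neighbour.

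**Figure D1:**
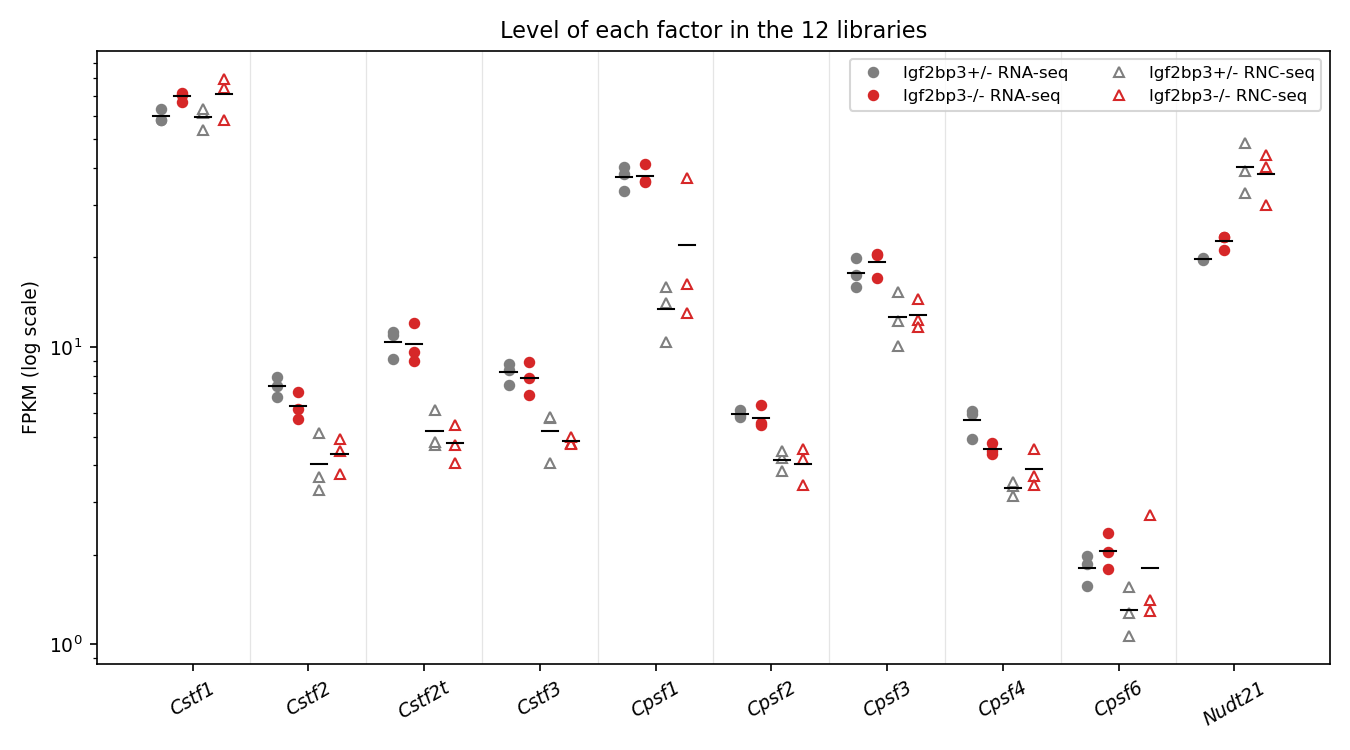
Level of each of the 10 factors in the 12 libraries, as FPKM on a log axis, with grey for Igf2bp3+/-, red for Igf2bp3-/-, filled circles for RNA-seq, open triangles for RNC-seq and black bars for the means of 3 libraries. Nudt21 was higher in RNC-seq than in RNA-seq, most other factors were lower, and a single Igf2bp3-/- RNC-seq library of Cpsf1, at 36.9 FPKM, lies apart from the other 5 RNC-seq libraries.

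RNC-seq was then compared with RNA-seq within each genotype, which asks how far each mRNA was represented on polysomes relative to the other mRNAs of the same cells. Differences are given as log2(FPKM + 0.1) in RNC-seq minus RNA-seq, tested with limma across all genes, with 3 libraries per assay. In Igf2bp3+/- spermatids 7 of the 10 factors were lower in RNC-seq and 1, Nudt21, was higher, at a Benjamini-Hochberg adjusted p under 0.05. Such calls were common in this comparison, where 43.6% of all 19798 genes tested passed, 26.3% lower and 17.3% higher. The median difference was -0.59 over the factors and -0.14 over all genes. The libraries of the assays did not overlap for 9 of the 10 factors, against 55.6% of all genes.

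In Igf2bp3-/- spermatids 3 factors passed as lower (Cstf2t, Cstf3 and Cpsf3) and Nudt21 as higher, where 20.5% of 19858 genes passed, 11.0% lower and 9.48% higher. The median difference was -0.52 over the factors and -0.06 over all genes, and the assays did not overlap for 6 of the 10, against 40.5% of all genes. The smaller number of calls does not show that the genotypes differ, since the test of that difference, the interaction given further on, called none of the 10. Because FPKM is relative to the other transcripts of a library, these values depend on how libraries are scaled. With libraries centred on their medians, the difference of all genes moved by 0.18 in Igf2bp3+/- and by 0.06 in Igf2bp3-/-, and the split of all calls in Igf2bp3+/- went from 17.3% higher and 26.3% lower to 24.5% higher and 20.8% lower. Under that centring 5 factors were lower and 1 higher in Igf2bp3+/-, and 3 lower and 1 higher in Igf2bp3-/-, where 12.1% of all genes passed as higher and 9.81% as lower. Rescaling without CT010467.1, the transcript with the largest share of each library (5.68% to 19.4% of summed FPKM), moved the difference of all genes by -0.20 in both genotypes, gave 8 factors lower and 1 higher in Igf2bp3+/-, and 5 lower and 1 higher in Igf2bp3-/-. The split of all calls was then 12.6% higher and 33.9% lower in Igf2bp3+/- and 6.27% higher and 17.7% lower in Igf2bp3-/-.

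Among the CPSF subunits, Cpsf1 had the largest difference. Cpsf1 is the large scaffold subunit of the hexamer-binding module. Its level in Igf2bp3+/- was 33.4, 38.2 and 40.1 FPKM in RNA-seq and 10.4, 15.9 and 14.1 FPKM in RNC-seq, with the assays wide apart. The difference was -1.48 ± 0.17 (SE, adjusted p = 0.000386, limma with Benjamini-Hochberg adjustment), or 0.358 times the RNA-seq level. In Igf2bp3-/- the RNA-seq libraries stood at 35.9, 41.1 and 36.1 FPKM and the RNC-seq libraries at 16.2, 36.9 and 13.0. Replicate 2 of RNC-seq thus lay within the range of the RNA-seq libraries, and the other replicates lay below it. The difference over all 6 libraries, -0.92 ± 0.33, did not pass (adjusted p = 0.0783, limma). Without RNC-seq replicate 2 it was -1.37 and passed (adjusted p = 0.000754, limma). With all 6 libraries it also passed under array weights (-1.06, adjusted p = 0.0141, limma), in the fit over all 12 libraries (-0.92, adjusted p = 0.0335) and with the replicate number as a block (-0.92, adjusted p = 0.0250), so the call rested on the model as well as on this library.

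Cpsf3 is the endonuclease that makes the cut, and Cpsf2 is its inactive partner in the cleavage module. In Igf2bp3+/- Cpsf3 stood at 20.0, 17.4 and 16.0 FPKM in RNA-seq and at 12.3, 10.1 and 15.3 in RNC-seq. In Igf2bp3-/- it stood at 17.1, 20.3 and 20.5 FPKM in RNA-seq and at 14.5, 12.3 and 11.7 in RNC-seq. The assays did not overlap in either genotype, and the differences of -0.51 ± 0.18 and -0.59 ± 0.17 passed narrowly (limma, adjusted p = 0.0459 and 0.0388). Both calls were lost without any 1 of the RNA-seq libraries. The call in Igf2bp3+/- was also lost without RNC-seq replicate 1 or 2 (adjusted p of the lost calls from 0.0613 to 0.152, limma), and that in Igf2bp3-/- without RNC-seq replicate 3 (from 0.0840 to 0.166, limma). Both were lost with the replicate number as a block (limma, adjusted p = 0.0558 and 0.0641) and without the intensity trend (limma, adjusted p = 0.0884 and 0.0783). The call in Igf2bp3+/- was also lost with median centring (-0.34, adjusted p = 0.0988, limma) and array weights (adjusted p = 0.0554, limma). It was lost as well without the filter on low values and with 0.01 added to FPKM (limma, adjusted p = 0.0598 and 0.0505). Of 17 alternatives, 6 kept the call in Igf2bp3+/- and 11 that in Igf2bp3-/-. Cpsf2 stood at 5.80, 6.15 and 5.91 FPKM in Igf2bp3+/- RNA-seq and at 3.82, 4.24 and 4.48 FPKM in RNC-seq. In Igf2bp3-/- it stood at 5.45, 5.57 and 6.36 FPKM in RNA-seq and at 4.19, 4.52 and 3.44 FPKM in RNC-seq. Again every RNC-seq library was below every RNA-seq library. The difference was close to the same in both genotypes, -0.50 ± 0.15 and -0.51 ± 0.19, although it passed in Igf2bp3+/- (adjusted p = 0.0239, limma) and not in Igf2bp3-/- (adjusted p = 0.0843, limma). The call in Igf2bp3+/- was lost without any 1 RNA-seq library or without RNC-seq replicate 1 (adjusted p from 0.0612 to 0.0937, limma), and with median centring (-0.33, adjusted p = 0.140) or quantile normalization (-0.39, adjusted p = 0.0735). A call in Igf2bp3-/- was gained without RNC-seq replicate 2 (adjusted p = 0.0360, limma). With all its libraries kept, Cpsf2 also passed there in the fit over all 12 libraries (-0.51, adjusted p = 0.0313, limma). The same held after rescaling without the largest transcript (-0.73, adjusted p = 0.0256, limma).

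Cpsf4 is a zinc finger subunit that contacts the hexamer. Its level in Igf2bp3+/- was 4.92, 6.11 and 5.95 FPKM in RNA-seq and 3.41, 3.16 and 3.51 FPKM in RNC-seq. These did not overlap and differed by -0.73 ± 0.16 (adjusted p = 0.00673, limma). In Igf2bp3-/- the levels were 4.75, 4.47 and 4.36 FPKM in RNA-seq and 4.55, 3.68 and 3.44 FPKM in RNC-seq. Here the assays overlapped, and the difference was -0.22 ± 0.19 (adjusted p = 0.431, limma).

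Among the CstF subunits, Cstf1 behaved apart from its partners. Cstf1 is a WD40-repeat subunit that brings CstF together as a dimer. In Igf2bp3+/- it stood at 58.0, 63.2 and 58.0 FPKM in RNA-seq and at 53.8, 61.4 and 63.0 FPKM in RNC-seq. The assays overlapped throughout, and the difference was -0.01 ± 0.12 with a 95% confidence interval of -0.27 to 0.26. In Igf2bp3-/- the difference was 0.01 ± 0.17, with an interval of -0.37 to 0.39. The sign of both depended on scaling, at 0.17 in Igf2bp3+/- after median centring and -0.21 in Igf2bp3-/- after leaving out the largest transcript.

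Cstf3, the scaffold subunit that joins the others, was lower in RNC-seq in both genotypes. It stood at 8.39, 7.47 and 8.79 FPKM in Igf2bp3+/- RNA-seq and at 5.76, 4.06 and 5.80 FPKM in RNC-seq. In Igf2bp3-/- it stood at 6.90, 7.86 and 8.87 FPKM in RNA-seq and at 4.77, 4.71 and 4.98 FPKM in RNC-seq. No libraries of the assays overlapped, and the differences were -0.66 ± 0.18 and -0.69 ± 0.18 (limma, adjusted p = 0.0179 and 0.0254). The call in Igf2bp3+/- was lost without RNA-seq replicate 1 or 3 (adjusted p = 0.0590 and 0.0624), and that in Igf2bp3-/- without any 1 RNA-seq library or RNC-seq replicate 1 (adjusted p from 0.0523 to 0.110, limma).

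Cstf2 and Cstf2t encode alternative forms of the CstF subunit that touches the RNA. Cstf2t is a single-exon gene of 4233 bases at chr19:31082837-31087069 (+ strand, GRCm38), inside an intron of Prkg1 on the opposite strand and with no exonic overlap. Its level was 9.08, 11.2 and 11.0 FPKM in Igf2bp3+/- RNA-seq and 4.68, 4.80 and 6.14 FPKM in RNC-seq. In Igf2bp3-/- it was 8.96, 9.59 and 12.0 FPKM in RNA-seq and 4.70, 5.46 and 4.06 FPKM in RNC-seq. The assays lay wide apart in both genotypes. The differences of -0.99 ± 0.17 and -1.09 ± 0.20 (limma, adjusted p = 0.00201 and 0.00754) correspond to 0.503 and 0.470 times the RNA-seq level. Cstf2t was the factor whose call held in both genotypes without each library in turn. Cstf2, at chrX:134059187-134086819 (+ strand), stood at 7.40, 6.77 and 7.94 FPKM in Igf2bp3+/- RNA-seq and at 3.31, 3.65 and 5.13 FPKM in RNC-seq. The groups did not overlap, and the difference was -0.88 ± 0.19 (adjusted p = 0.00681, limma). In Igf2bp3-/- the levels were 7.05, 6.19 and 5.71 FPKM in RNA-seq and 4.91, 4.48 and 3.75 FPKM in RNC-seq. These did not overlap either, and the difference of -0.52 ± 0.19 did not pass (adjusted p = 0.0804, limma). Of the exonic bases of Cstf2, 4.35% are shared with Nox1 on the opposite strand, and neither the labels nor the methods say if reads were assigned by strand. The like shares were 3.71% for Cpsf3, 2.57% for Cpsf2 and 0.248% for Cpsf1, and 0 for the other factors.

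The autosomal paralog exceeded the X-linked one in 11 of the 12 libraries. Within a library the ratio of Cstf2t to Cstf2 does not depend on library scaling, but it does depend on the transcript lengths used for FPKM. It was 1.23, 1.66 and 1.38 in Igf2bp3+/- RNA-seq, 1.27, 1.55 and 2.11 in Igf2bp3-/- RNA-seq, 1.42, 1.32 and 1.20 in Igf2bp3+/- RNC-seq and 0.957, 1.22 and 1.08 in Igf2bp3-/- RNC-seq. The ratios of Igf2bp3+/- and Igf2bp3-/- overlapped in both assays. On the log2 scale the ratio in Igf2bp3-/- minus that in Igf2bp3+/- was 0.19 in RNA-seq (exact permutation p = 0.6, two-sided) and -0.27 in RNC-seq (exact permutation p = 0.2), where 3 against 3 libraries cannot go below 0.1. RNC-seq minus RNA-seq over both genotypes, 6 against 6 libraries, was -0.34 (two-sided exact permutation p = 0.0346, smallest possible 0.00216). Adjusted by Benjamini-Hochberg over these 3 comparisons, that exact permutation p was 0.104, which does not pass. Within Igf2bp3+/- the difference was -0.11 (exact permutation p = 0.5) and within Igf2bp3-/- -0.57 (exact permutation p = 0.1).

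The profiles most like those of the paralogs were sought among 11389 genes with a mean of at least 1 FPKM in each assay, as the smallest root mean square difference of centred log2 values over the 12 libraries. For Cstf2t these were Bub1b (0.0927), Rfc1 (0.10) and Spag5 (0.113), where Cstf2t itself varied by a root mean square of 0.548 about its mean. For Cstf2 they were Rbm15 (0.109), Donson (0.121) and Cwc25 (0.129), against 0.401 for Cstf2 itself. Much of both profiles is the step between the assays, which these genes share.

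Nudt21, the small subunit of cleavage factor I that binds UGUA, was the factor higher on polysomes. It stood at 19.8, 19.6 and 19.9 FPKM in Igf2bp3+/- RNA-seq and at 48.6, 33.0 and 38.9 FPKM in RNC-seq. In Igf2bp3-/- it stood at 21.2, 23.4 and 23.4 FPKM in RNA-seq and at 44.4, 30.1 and 40.2 FPKM in RNC-seq. Every RNC-seq library exceeded every RNA-seq library. The differences were 1.00 ± 0.16 and 0.73 ± 0.18 (limma, adjusted p = 0.00132 and 0.0230), or 2.00 and 1.66 times the RNA-seq level. The call in Igf2bp3+/- held without each library in turn (adjusted p at most 0.00767, limma). That in Igf2bp3-/- was lost without any 1 library but RNC-seq replicate 2 (adjusted p from 0.0603 to 0.105, limma). It was also lost without the intensity trend (adjusted p = 0.0573, limma). A processed pseudogene on chromosome 3, Gm7488 (chr3:21049565-21050248, GRCm38), is identical to 13.7% of the longest Nudt21 transcript, and reads from that stretch cannot be assigned to one or the other. Gm7488 was listed at 4.77, 7.27 and 6.95 FPKM in Igf2bp3+/- RNA-seq and at 16.0, 8.33 and 11.8 FPKM in RNC-seq. Its difference was 0.89 ± 0.26 (adjusted p = 0.0230, limma), but its values may consist of Nudt21 reads, so it is not a separate result.

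Cpsf6, the larger subunit that pairs with Nudt21, was the least abundant factor. Its level was 1.86, 1.99 and 1.57 FPKM in Igf2bp3+/- RNA-seq and 1.56, 1.07 and 1.28 FPKM in RNC-seq. These just failed to overlap, and the difference of -0.45 ± 0.22 did not pass (adjusted p = 0.123, limma). In Igf2bp3-/- the levels were 2.04, 1.79 and 2.36 FPKM in RNA-seq and 2.72, 1.42 and 1.29 FPKM in RNC-seq, with replicate 1 of RNC-seq above all others. The difference there was -0.25 ± 0.29 (adjusted p = 0.580, limma). Within a library the FPKM of Nudt21 exceeded that of Cpsf6 by 9.85 to 13.1 times in RNA-seq and by 16.3 to 31.1 times in RNC-seq. These ratios too depend on the transcript lengths used. The ratio of mean RNC-seq to mean RNA-seq FPKM, which the study uses as translational efficiency (TE), was 2.03 for Nudt21 and 0.721 for Cpsf6 in Igf2bp3+/-, with a median of 0.944 over all genes. Cpsf1 had the lowest ratio of the 10 at 0.361, below which lay 8.58% of all genes.

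**Figure D2:**
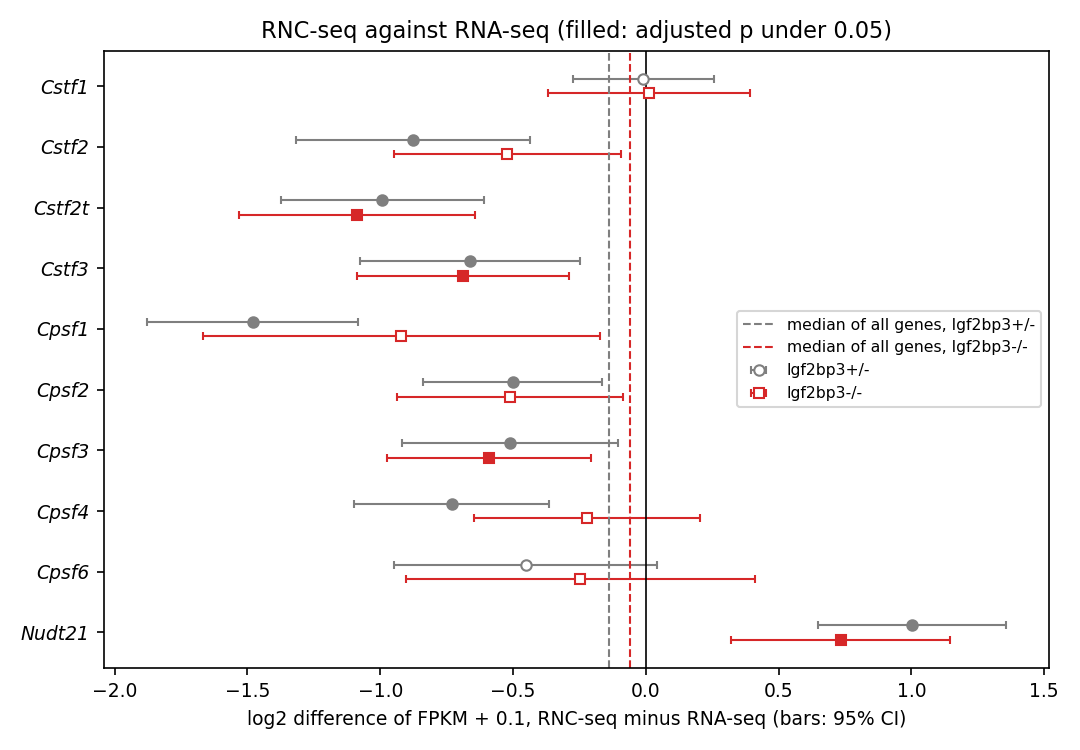
Difference of RNC-seq from RNA-seq for each factor, as log2(FPKM + 0.1) with 95% confidence intervals from limma, with grey circles for Igf2bp3+/- and red squares for Igf2bp3-/-, 3 libraries per assay and genotype. Filled marks passed an adjusted p of 0.05, dashed lines give the medians of all genes (-0.14 and -0.06), and Nudt21 lies to the right of 0 while Cpsf1 and Cstf2t lie farthest to the left.

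The comparison the study was built for sets Igf2bp3-/- against Igf2bp3+/- spermatids. No factor passed in RNA-seq, in RNC-seq or in TE by limma with adjustment over all genes. Few genes did, 0.256% of 20352 in RNA-seq, 0.115% of 19051 in RNC-seq and 0.00543% of 18414 in TE. At an unadjusted p under 0.05 the counts were 2 of 10 factors against 15.7% of all genes in RNA-seq, 0 against 6.48% in RNC-seq and 1 against 7.13% in TE. The median difference, Igf2bp3-/- minus Igf2bp3+/-, was -0.01 over the factors and 0.05 over all genes in RNA-seq, 0.09 and 0.13 in RNC-seq, and 0.01 and 0.06 in TE.

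In RNA-seq 3 of the 10 factors had no overlap between the genotypes, against 22.7% of all genes. For Cstf1 all 3 Igf2bp3-/- libraries, at 66.6, 70.4 and 71.6 FPKM, lay above the 58.0, 63.2 and 58.0 FPKM of Igf2bp3+/-, a difference of 0.22 ± 0.08 with an adjusted p of 0.266 by limma. Nudt21 showed the same direction at 0.20 ± 0.09 (adjusted p = 0.337, limma). For Cpsf4 the Igf2bp3-/- libraries lay below those of Igf2bp3+/-, by -0.31 ± 0.13 (adjusted p = 0.301, limma). For the other 7 factors the genotypes overlapped, with differences from -0.22 for Cstf2 to 0.18 for Cpsf6. The 95% intervals of Cpsf1, Cpsf2, Cstf2t and Cstf3 ran from -0.22 to 0.26, from -0.30 to 0.22, from -0.36 to 0.29 and from -0.36 to 0.23, so that larger changes of these mRNAs lay outside them. In bulk RNA, fewer cells of a type and less RNA per cell cannot be told apart. The summed round spermatid and Leydig marker levels given above moved with genotype in RNA-seq. The differences of the 7 round spermatid markers were all above 0, with a median of 0.28, and 0 of them passed by limma while 5 had an unadjusted p under 0.05. Among the 6 of 7 Leydig markers tested 3 passed as higher in Igf2bp3-/- RNA-seq. The sum of 6 macrophage markers was also higher there (2.24 to 2.44 against 4.88 to 5.37 FPKM), with 1 of the 6 past the limit. The sum of 6 Sertoli markers (3.45 to 4.32 against 7.13 to 7.95 FPKM) was mostly Clu, at a mean of 3.12 and 6.69 FPKM, which was the 1 of the 4 tested that passed, while Rhox5 differed by -0.81 (adjusted p = 0.548, limma). The sum of 4 peritubular markers overlapped between genotypes, at 1.32 to 1.45 FPKM in Igf2bp3+/- and 0.834 to 1.33 in Igf2bp3-/-. The 3 of them tested ran from -1.70 for Tagln to 0.13 for Acta2, and 0 passed. The sums of the elongating spermatid, spermatocyte and spermatogonia markers overlapped as well. The part of these cell types in the values of the factors was not tested.

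In RNC-seq the genotypes overlapped for all 10 factors, against 11.3% of all genes without overlap. The largest difference was that of Cpsf1 at 0.58 ± 0.35 (adjusted p = 0.809, limma), which rested on the library at 36.9 FPKM and was 0.13 without it. The others ranged from -0.13 for Cstf2t to 0.38 for Cpsf6, and the latter was 0.06 when the Igf2bp3-/- RNC-seq library at 2.72 FPKM was left out. The intervals were wider than in RNA-seq, at -0.20 to 0.68 for Cstf1 and -0.57 to 0.43 for Nudt21. Scaling moved the median of all genes in this comparison by -0.11 to -0.14, and the sign for Cpsf3 (0.04) changed with it.

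For TE, tested as a genotype-by-assay interaction with all 12 libraries, the largest differences were 0.56 ± 0.41 for Cpsf1 (adjusted p = 0.762, limma) and 0.51 ± 0.23 for Cpsf4 (adjusted p = 0.699, limma). That of Cpsf1 was 0.11 without Igf2bp3-/- RNC-seq replicate 2, while that of Cpsf4 ran from 0.39 to 0.61 with replicates left out. The RNA-seq levels of Cpsf4 did not overlap between the genotypes and its RNC-seq levels did, and its ratio of means was 0.593 in Igf2bp3+/- and 0.859 in Igf2bp3-/-. The ratio of Nudt21 was 2.03 and 1.69, with a TE difference of -0.27 ± 0.24 (95% interval -0.79 to 0.25), which ran from -0.43 to -0.081 with replicates left out and was nearest 0 without replicate 2 of Igf2bp3-/- in both assays. For Cstf2t the ratios were 0.500 and 0.465, and for Cstf2 0.546 and 0.693. The remaining differences lay between -0.10 and 0.36.

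**Figure D3:**
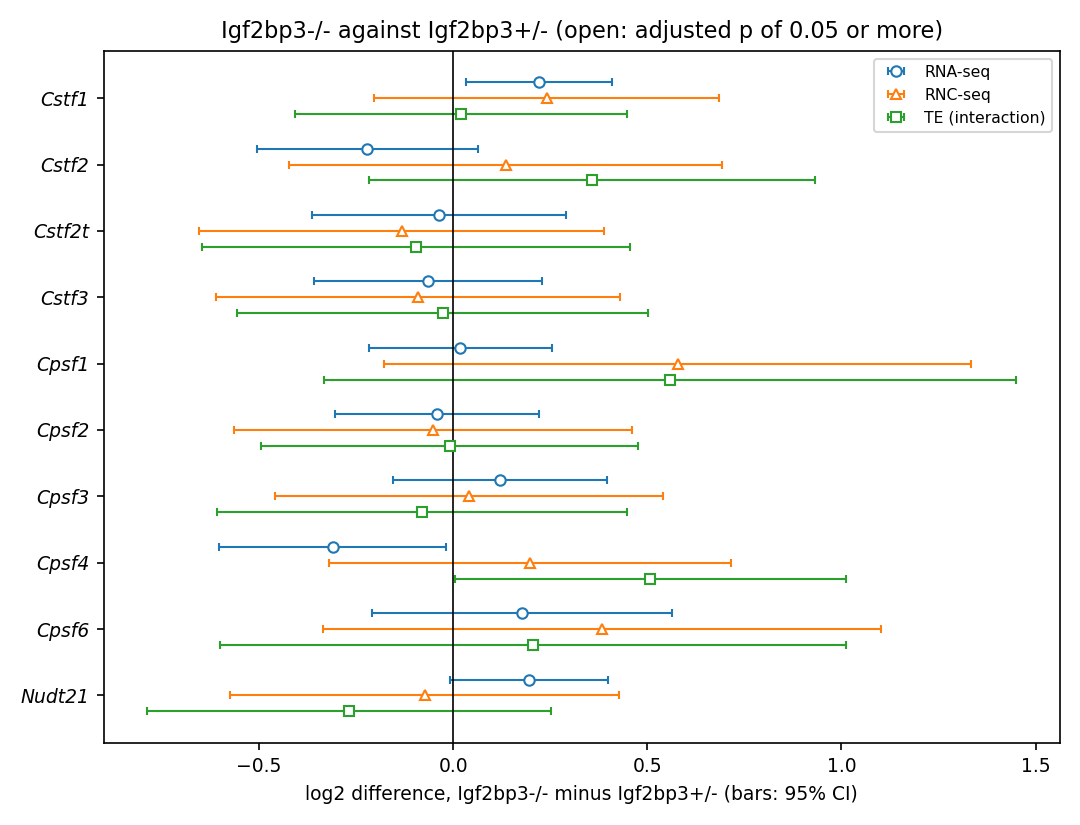
Difference of Igf2bp3-/- from Igf2bp3+/- spermatids for each factor in RNA-seq (blue circles), RNC-seq (orange triangles) and TE (green squares), on the log2 scale with 95% confidence intervals from limma, 3 libraries per genotype and assay. All marks are open, since 0 of the 10 factors passed an adjusted p of 0.05, and the intervals are narrowest for RNA-seq and widest for Cpsf1 in RNC-seq and TE.

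Between genotypes the core and accessory genes of 3′ end processing ran from -0.40 to 0.76 in RNA-seq and from -0.31 to 1.20 in RNC-seq. The 10 factors ran from -0.31 to 0.22 and from -0.13 to 0.58. Both upper ends of the former were Ppp1ca, at a mean of 0.619 FPKM in RNA-seq and 0.242 in RNC-seq of Igf2bp3+/-. Genes of histone 3′ end processing ran from 0.11 to 0.32 in RNA-seq and from -0.12 to 0.58 in RNC-seq. Integrator genes ran from -0.18 to 0.32 and from -0.36 to 0.37. Of 17 core and accessory genes listed, 16 were in the table, and none passed between genotypes in RNA-seq, RNC-seq or TE by limma, while at an unadjusted p under 0.05 there were 4, 4 and 1 of 16, against 15.7%, 6.48% and 7.13% of all genes. Between assays 7 of the 16 were lower and 0 higher in Igf2bp3+/- RNC-seq, with a median difference of -0.75, against 26.3% and 17.3% of all genes. In Igf2bp3-/- 7 were lower and 1 higher, with a median of -0.61, against 11.0% and 9.48% of all genes. The lowest was Rbbp6, a ring-finger protein of the cleavage complex, at 22.4 ± 1.57 FPKM (SD, n = 3) in RNA-seq and 5.54 ± 1.48 in RNC-seq of Igf2bp3+/-, a difference of -2.02 ± 0.19 (adjusted p = 0.000160, limma). It was also lower in Igf2bp3-/- (-1.43 ± 0.20, adjusted p = 0.00360, limma). Wdr33, which contacts the hexamer together with Cpsf4, differed by -1.30 in Igf2bp3+/- and -1.03 in Igf2bp3-/-, and Pcf11, a subunit of cleavage factor II, by -1.03 and -0.92, all past the limit. Cpsf7, the alternative partner of Nudt21, was scarcer than Cpsf6 at 0.984 ± 0.058 FPKM in Igf2bp3+/- RNA-seq, and it was lower in RNC-seq of Igf2bp3+/- (-1.24 ± 0.25, adjusted p = 0.00486, limma).

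Sympk, the scaffold that ties CPSF and CstF together, was lower in RNC-seq of Igf2bp3+/- and overlapped between the assays in Igf2bp3-/-. It stood at 9.44, 9.93 and 10.8 FPKM in RNA-seq and at 4.41, 5.07 and 5.18 FPKM in RNC-seq of Igf2bp3+/-, a difference of -1.03 ± 0.14 (adjusted p = 0.000853, limma). In Igf2bp3-/- it stood at 9.47, 9.0 and 7.29 FPKM in RNA-seq and at 7.91, 11.3 and 5.49 FPKM in RNC-seq, with a difference of -0.11 ± 0.26 (adjusted p = 0.792, limma). All 3 Igf2bp3-/- RNC-seq libraries lay above those of Igf2bp3+/-, by 0.68 ± 0.28 (adjusted p = 0.756, limma), and the TE difference was 0.92 ± 0.31 (adjusted p = 0.686, limma), neither past the limit. The Igf2bp3-/- RNC-seq library at 11.3 FPKM was replicate 2, in which Cpsf1 stood at 36.9 FPKM. The differences of Sympk were not fitted without it. The poly(A) polymerases were abundant. The germ cell enzyme Papolb stood at 62.4 ± 6.61 FPKM (SD, n = 3) and Papola, the general nuclear enzyme, at 39.5 ± 2.80 FPKM in Igf2bp3+/- RNA-seq. Papola did not pass between assays (0.09 and 0.16 in Igf2bp3+/- and Igf2bp3-/-), whereas Papolb passed as lower in Igf2bp3-/- (-0.67 ± 0.20, adjusted p = 0.0415, limma) and not in Igf2bp3+/- (-0.89 ± 0.34, adjusted p = 0.0630, limma). Cpsf4l, a relative of Cpsf4, stood at 23.5 ± 1.27 FPKM where Cpsf4 stood at 5.66 ± 0.65. It passed as higher in RNC-seq of Igf2bp3-/- (0.50 ± 0.16, adjusted p = 0.0495, limma). The calls of Papolb and Cpsf4l lay near the limit. Calls outside the 10 factors were not repeated with other settings or without single libraries.

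Lsm10, a subunit of the particle that recognises histone precursor mRNAs, was higher in RNC-seq at 1.21 ± 0.13 in Igf2bp3+/- and 0.91 ± 0.16 in Igf2bp3-/- (limma, adjusted p = 0.000230 and 0.00702). Of the 4 tested genes for histone 3′ end processing it was the 1 higher, and Casp8ap2 was lower in Igf2bp3+/- (-1.35 ± 0.27, adjusted p = 0.00466, limma). Of 6 Integrator genes, whose complex cuts small nuclear RNA precursors with paralogs of Cpsf2 and Cpsf3, 4 were lower in Igf2bp3+/- (Ints1, Ints3, Ints6 and Ints9) and 2 in Igf2bp3-/- (Ints3 and Ints6), and none was higher, where 26.3% and 11.0% of all genes passed as lower. Ints11, the paralog of Cpsf3, did not pass (0.31 in Igf2bp3+/- and -0.03 in Igf2bp3-/-).

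**Figure D4:**
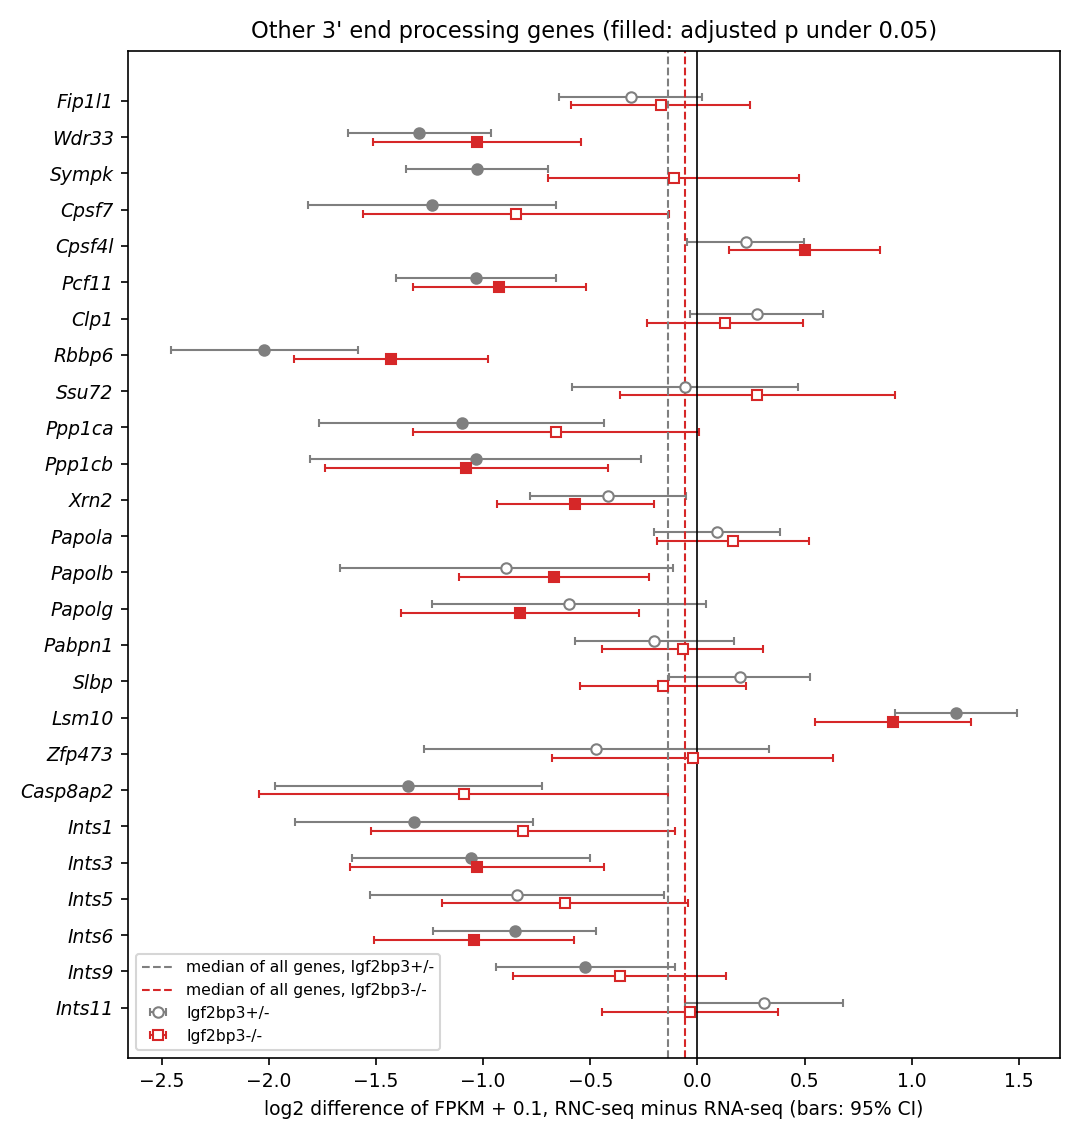
Difference of RNC-seq from RNA-seq for the 26 other 3′ end processing genes tested, as log2(FPKM + 0.1) with 95% confidence intervals from limma, grey circles for Igf2bp3+/- and red squares for Igf2bp3-/-, 3 libraries per assay and genotype, filled where the adjusted p was under 0.05. Rbbp6 lies farthest to the left in both genotypes, and Lsm10 is the 1 gene that passed to the right of 0 in both.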

How the data were processed

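The authors deposited 1 table of FPKM for the 12 libraries. Per the labels and the methods, reads were processed with CASAVA 1.8, Trim Galore 0.6.6, HISAT2 and StringTie 2.1.7 on GRCm38. The labels and the methods name different library kits and instruments. Of 28668 symbols, 25 that spreadsheet software had turned into dates were left out. FPKM was not rescaled. Values were tested as log2(FPKM + 0.1), which understates changes of low genes, with limma 3.58.1 in R 4.3.3, with an intensity trend, for genes with a mean FPKM above 0.1 (in each assay for TE), two-sided, with Benjamini-Hochberg adjustment over all genes and a limit of 0.05. Code was tested on simulated data. Ratios were tested by exact permutation in scipy 1.17.1. Copies (at least 95% identity over 50% of a transcript) were sought with BLAST 2.17.0, and 27839 symbols matched GENCODE M21. Named genes were the 10 factors, fixed lists of other 3′ end processing genes and cell type markers, Igf2bp3 and, for Cstf2t and Cstf2, the 3 most similar profiles. Gm7488 and CT010467.1 were added after their values were seen. The factors and lists were chosen with earlier results of these data known.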

Additional observations from a re-analysis of the deposited data

How the results depend on the processing

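No factor passed between genotypes under any alternative that kept the adjusted limit. At an unadjusted p under 0.05 the number called was 2 in RNA-seq and 1 in TE. Between assays, 8 factors were called in Igf2bp3+/- (5 to 8 without 1 library) and 4 in Igf2bp3-/- (1 to 6 without 1 library, 2 without the intensity trend, 7 at an unadjusted p under 0.05). The methods divide each mouse's extract between the assays but do not tie the replicate numbers to mice, so the number was not taken to pair libraries. Deviations of same-numbered libraries from their group means correlated between -0.10 and 0.21 over 12265 genes. Of the 12 libraries, 8 correlated best with their own number. These values do not settle whether the numbers pair. With the replicate number as a block, Cpsf3 was no longer called in either genotype (adjusted p = 0.0558 in Igf2bp3+/- and 0.0641 in Igf2bp3-/-, limma), Cpsf1 was called in Igf2bp3-/- (adjusted p = 0.0250, limma), no factor passed between genotypes, and the paired exact permutation p of the RNC-seq minus RNA-seq change of the Cstf2t to Cstf2 ratio (-0.34) was 0.0625. Over all genes, calls between genotypes in RNA-seq went from 52 to 4 with the block, 31 without the filter, 84 with array weights and 9 to 38 without 1 library. In RNC-seq they went from 22 to between 1 and 48 by setting and 0 to 20 without 1 library, and between assays in Igf2bp3-/- from 4068 to between 1134 and 6523 without 1 library. The causes were not tested.

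Of 960 values of the factors under the alternatives, 854 kept sign and call, 35 lost a call, 9 gained one and 62 changed sign, all 62 for differences that were not called. Between genotypes in RNA-seq, Cpsf1 (0.02) became -0.072 with quantile normalization and -0.10 without the largest transcript, and Cpsf3 (0.12) became -0.00132 without that transcript. In RNC-seq, Cpsf3 (0.04) became -0.078 with median centring, -0.084 with quantile normalization, -0.076 without the largest transcript and -0.051 with array weights. In TE, Cstf1 (0.02) became -0.11 with median centring and Cpsf2 (-0.01) became 0.00115 with array weights. Between assays, Cstf1 became 0.17 with median centring in Igf2bp3+/-, and in Igf2bp3-/- -0.063 with quantile normalization, -0.21 without the largest transcript and -0.00119 with array weights. Leaving out 1 replicate, RNA-seq differences ran from -0.16 to 0.051 for Cstf2t, -0.15 to 0.027 for Cstf3, -0.057 to 0.075 for Cpsf1 and -0.11 to 8.5e-05 for Cpsf2. Those in RNC-seq ran from -0.13 to 0.059 for Cpsf2, -0.11 to 0.19 for Cpsf3 and -0.21 to 0.090 for Nudt21. In TE they ran from -0.074 to 0.18 for Cstf1, -0.24 to 0.13 for Cstf2t, -0.19 to 0.062 for Cstf3, -0.12 to 0.17 for Cpsf2, -0.26 to 0.15 for Cpsf3 and -0.12 to 0.49 for Cpsf6. Between assays Cstf1 ran from -0.053 to 0.060 in Igf2bp3+/- and -0.084 to 0.15 in Igf2bp3-/-. The genotype difference of the Cstf2t to Cstf2 ratio in RNA-seq ran from -0.0084 to 0.36, below 0 without Igf2bp3-/- replicate 3. Read counts were not given and depth was only estimated, so no counting error was worked out. With 3 libraries per group the intervals of the genotype differences were wide, so calls that missed the limit do not show that levels were alike.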
